A study of Mus musculus with 12 samples.

Results

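The genes described here are 9 members of the Src-family and SYK signalling pathway, selected by their symbols from the 12960 genes of a count table of mouse bone marrow-derived macrophages (BMDMs). They are the Src-family kinases Fgr, Lyn and Src, their inhibitory kinase Csk, the kinases Syk and Btk, the phospholipase Plcg2, and the inositol phosphatases Inpp5d (SHIP1) and Inppl1 (SHIP2). Plcg2, Inpp5d and Inppl1 are enzymes of the pathway and not kinases. All 9 genes were in the table and all 9 passed the filter on low counts, which left 10822 genes for testing. Fgr was chosen by its fall with PF-06409577 in WT and not in AMPKβ1-/- BMDMs, so its response to the compound is given as a description with no test.

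RNA sequencing was performed on BMDMs, which were grown from mouse marrow for 7 days in medium conditioned by L929 cells, a source of M-CSF. The cells came from WT mice or from whole-body AMPKβ1-/- mice, which lack the β1 regulatory subunit of AMP-activated protein kinase. Cells were kept for 6 h with 0.1% DMSO as vehicle or with 10 μM of PF-06409577 (PF), an activator of AMPK complexes that hold β1. The 4 groups were WT with vehicle, WT with PF, AMPKβ1-/- with vehicle and AMPKβ1-/- with PF, with 3 libraries in each. The study asked how activation of AMPK affects inflammation and metabolism in these cells.

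Src-family kinases stand at the start of signalling by Fc receptors, β2 integrins and C-type lectins in macrophages. They phosphorylate ITAM motifs of receptor adaptors, SYK docks on these motifs, and SYK with BTK activates PLCγ2, which raises calcium and diacylglycerol. CSK holds Src-family kinases in their inactive form, and the SHIP phosphatases remove the lipid that PI3-kinase makes.

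The 12 libraries held 8935609 to 14358180 counts. Prkab1, which encodes AMPKβ1, had 44.3 ± 0.943 CPM (counts scaled to library size, mean ± SD, n = 3 as for all groups) in WT and 7.38 ± 1.20 CPM in AMPKβ1-/- BMDMs with vehicle, and all libraries of each genotype lay on their own side. All 10 macrophage markers were detected, with a summed level of 26109 to 30937 CPM. B cell markers, which matter here because Lyn, Syk, Btk and Plcg2 also act in B cells, summed to at most 2.99 CPM, T or NK cell markers to at most 0.281 CPM, dendritic cell markers to at most 1.07 CPM, erythroid markers to at most 1.19 CPM and fibroblast markers to at most 9.66 CPM. Nothing in the labels says that the libraries of a group came from separate animals or cultures, so p-values measure the spread between these libraries, which may be technical. In bulk RNA, fewer cells of a type and less RNA per cell cannot be told apart.

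The promoters of 4 of the members that were lower with PF in WT BMDMs are shown for orientation, 1 for each gene, from 250 bases before to 50 bases after a RefSeq start on GRCm38.p6, in the direction of the gene. Capitals mark GAGGAA or its complement TTCCTC, the core that the macrophage factor PU.1 binds, and CACGTG, an E-box. The Fgr promoter at chr4:132973845-132974144 (+) holds the PU.1 core in the transcribed part, the Inpp5d promoter at chr1:87620062-87620361 (+) holds it on both sides of the start, a Csk promoter at chr9:57653582-57653881 (-) holds it once, and the Plcg2 promoter at chr8:117498025-117498324 (+) holds an E-box and no PU.1 core.
Fgr: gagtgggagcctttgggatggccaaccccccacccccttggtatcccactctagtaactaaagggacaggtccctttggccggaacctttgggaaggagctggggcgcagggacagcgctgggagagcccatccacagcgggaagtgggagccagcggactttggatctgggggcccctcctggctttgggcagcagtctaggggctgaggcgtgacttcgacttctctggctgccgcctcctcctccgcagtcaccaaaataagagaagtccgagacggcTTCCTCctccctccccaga
Inpp5d: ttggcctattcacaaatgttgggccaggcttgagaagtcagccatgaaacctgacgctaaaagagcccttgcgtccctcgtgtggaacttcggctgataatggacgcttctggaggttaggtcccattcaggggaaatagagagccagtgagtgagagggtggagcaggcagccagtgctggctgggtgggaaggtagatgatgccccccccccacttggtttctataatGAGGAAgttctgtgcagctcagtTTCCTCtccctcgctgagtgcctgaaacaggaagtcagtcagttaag
Csk: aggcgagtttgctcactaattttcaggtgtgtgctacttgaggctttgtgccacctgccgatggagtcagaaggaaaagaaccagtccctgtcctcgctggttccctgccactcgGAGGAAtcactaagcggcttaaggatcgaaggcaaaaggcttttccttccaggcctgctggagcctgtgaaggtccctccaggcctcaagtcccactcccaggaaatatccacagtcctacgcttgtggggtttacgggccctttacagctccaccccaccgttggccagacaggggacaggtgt
Plcg2: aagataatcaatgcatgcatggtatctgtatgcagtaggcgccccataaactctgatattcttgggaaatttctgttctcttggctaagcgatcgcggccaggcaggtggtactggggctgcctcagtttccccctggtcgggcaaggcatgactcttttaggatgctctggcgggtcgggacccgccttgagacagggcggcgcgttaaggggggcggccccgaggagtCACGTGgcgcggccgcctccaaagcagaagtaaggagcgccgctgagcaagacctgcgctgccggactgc

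GAGGAA, searched on both strands, was in 7 of the 11 promoters listed for 8 of the members and in 28.3% of all 32851 mouse promoters of this length. CACGTG was in 1 of the 11 and in 7.2% of all, and the AP-1 motif TGANTCA was in 0 of the 11 and in 7.8% of all. These matches describe letters and are not binding sites. The other Csk promoter listed, at chr9:57645604-57645903 (-), holds the PU.1 core 3 times and is not shown, and Inppl1 had no PU.1 core in either of its 2 promoters. On GRCm38 the genes that were lower span chr4:132974095-133001910 (Fgr), chr9:57626646-57653631 (Csk), chr1:87620312-87720507 (Inpp5d), chr7:101822632-101838229 (Inppl1) and chr8:117498291-117635142 (Plcg2), all protein-coding.

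Levels differed widely between the members. Per kilobase of transcript, the inhibitory kinase Csk was highest in WT BMDMs with vehicle at 185 ± 13.4 CPM per kb, followed by Syk at 161 ± 10.0 and Inpp5d at 158 ± 16.9. Inppl1 had 115 ± 8.76 and Plcg2 102 ± 9.50 CPM per kb. Lyn had 58.0 ± 4.50, Btk 46.1 ± 2.21, Fgr 11.4 ± 0.586 and Src 2.54 ± 0.634 CPM per kb. Mean ± SD overlapped for Syk and Inpp5d and for Inppl1 and Plcg2, and did not for other neighbours in this order. Lyn was thus the most abundant of the 3 Src-family members, and Src had only 74 to 127 counts in a library. In AMPKβ1-/- BMDMs with vehicle the order began with Syk at 136 ± 9.07, Inpp5d at 132 ± 11.0 and Csk at 125 ± 10.3 CPM per kb, and the means ± SD of these genes overlapped.

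**Figure D1:**
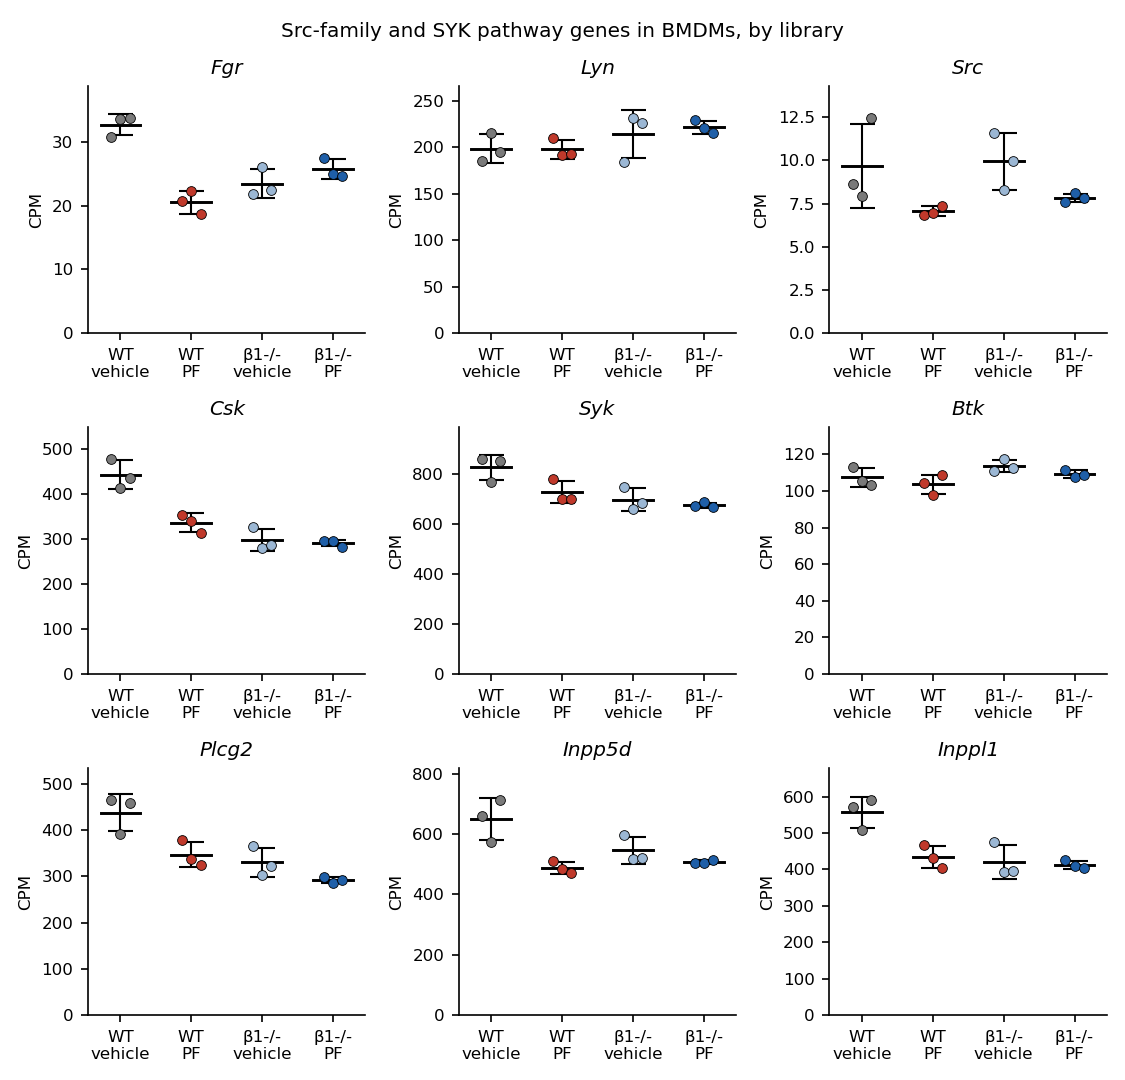
Normalised level of each of the 9 genes (y axis, CPM, starting at 0) in the 12 libraries (points), by genotype and treatment (x axis), with the mean (long line) and SD (bars) of each group of 3. Fgr, Csk, Inpp5d, Inppl1, Plcg2 and Src, which was not called, lie lower in all WT libraries with PF than in all WT libraries with vehicle. Lyn, Btk and Syk overlap.

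Fgr, a Src-family kinase of myeloid cells that acts below integrins and Fc receptors, was lower with PF in WT BMDMs. It had 30.8, 33.7 and 33.7 CPM in the WT libraries with vehicle and 20.7, 22.3 and 18.6 CPM in those with PF. In AMPKβ1-/- BMDMs it had 21.8, 26.0 and 22.5 CPM with vehicle and 27.5, 25.05 and 24.6 CPM with PF. The WT groups did not overlap, the AMPKβ1-/- groups did, and every AMPKβ1-/- library lay below every WT library with vehicle. The log2 fold change was -0.68 ± 0.11 (SE) in WT and 0.13 ± 0.11 in AMPKβ1-/- BMDMs. The responses differed by -0.81 ± 0.15 (WT minus AMPKβ1-/-). These values chose Fgr and are a description. Leaving out any single library gave -0.74 to -0.60 in WT.

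Fgr is also abundant in neutrophils, and the summed level of the granulocyte markers, of which 8 of 12 were in the table, was likewise highest in WT with vehicle. It was 107 to 115 CPM in WT with vehicle, 93.1 to 106 CPM in WT with PF, 84.6 to 91.9 CPM in AMPKβ1-/- with vehicle and 93.6 to 103 CPM in AMPKβ1-/- with PF. Nearly all of it was Csf3r, the G-CSF receptor, at 82.5 to 113 CPM, while S100a8 and S100a9, which define neutrophils, reached at most 0.655 and 0.321 CPM. Mmp8, the only other marker of this list that passed the filter, went the other way. It had 1.11 to 1.71 CPM in WT with vehicle and 1.89 to 3.38 CPM in WT with PF. In AMPKβ1-/- BMDMs Mmp8 had 1.70 to 2.64 CPM with vehicle and 3.16 to 3.92 CPM with PF. The part of Csf3r-expressing cells in the Fgr values was not tested. Kit, the only mast cell marker in the table, had 1.11 to 1.59 CPM in WT with vehicle and 2.49 to 4.02 CPM in WT with PF. In AMPKβ1-/- BMDMs Kit had 0.424 to 0.652 CPM with vehicle and 0.785 to 0.871 CPM with PF.

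The genes whose log2 CPM followed Fgr most closely over the 12 libraries, among 10821 genes compared, were Dglucy (Pearson r = 0.91), Rassf5 (r = 0.90), Arap3 (r = 0.90), Neurl1a (r = 0.90) and Dok2 (r = 0.90). The 12 points share the group structure that chose Fgr, so these values carry no p. Arap3, an effector of PI3-kinase, had group means of 168, 105, 115 and 122 CPM in the order WT vehicle, WT PF, AMPKβ1-/- vehicle and AMPKβ1-/- PF. Dok2, a docking protein that restrains tyrosine kinase signalling, had 127, 77.0, 82.6 and 85.4 CPM in the same order. Neurl1a lay near the lower limit, with at most 1.72 CPM as a group mean.

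Of the other 8 members, Csk, Inpp5d, Inppl1 and Plcg2 fell with PF in WT BMDMs and none rose. Called here means an adjusted p below 0.05 by edgeR's quasi-likelihood test, with Benjamini-Hochberg adjustment over all tested genes, and 15.9% of these were called, 8.95% as lower. The median log2 fold change was -0.35 over the 8 members and 0.0048 over all genes. Changes were small: 0 of the 8 passed the study's further threshold of 0.8 on the log2 scale, which 1.52% of all genes passed. In this fit 165 genes passed both thresholds, while the study, which used DESeq2, reported many more in WT. The reason for this gap was not tested. In 5 of the 8 members every library with PF lay below every library with vehicle, against 18.1% of all genes. Fitted on the WT libraries alone, 1 member, Csk, was called, and Inppl1 and Plcg2 lost their call when vehicle library 1 or 3 or PF library 2 or 3 of WT was left out.

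Csk, which phosphorylates the inhibitory tail of Src-family kinases, had 478, 415 and 436 CPM with vehicle and 355, 341 and 313 CPM with PF in WT. All libraries with PF lay lower, and Csk fell by 0.40 ± 0.08 on the log2 scale (edgeR adjusted p = 0.00728). With the β1 knockout Csk had 326, 281 and 287 CPM with vehicle and 295, 296 and 283 CPM with PF. These groups overlapped, with a log2 fold change of -0.03 ± 0.08 (edgeR adjusted p = 0.985).

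Inpp5d, the SHIP1 phosphatase of blood cells, had 662, 575 and 713 CPM with vehicle and 511, 483 and 470 CPM with PF in WT. It fell by 0.41 ± 0.09 on the log2 scale (edgeR adjusted p = 0.00773), with no overlap. The AMPKβ1-/- libraries had 598, 519 and 521 CPM with vehicle and 504, 505 and 514 CPM with PF. These groups did not overlap either, but the log2 fold change was -0.11 ± 0.09 (edgeR adjusted p = 0.982), and 6.28% of all genes were lower without overlap in this comparison.

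Inppl1, the broadly expressed SHIP2, had 572, 509 and 590 CPM with vehicle and 466, 433 and 404 CPM with PF in WT. It fell by 0.36 ± 0.09 on the log2 scale (edgeR adjusted p = 0.0177), with all libraries with PF below those with vehicle. Inppl1 overlaps Phox2a, a gene in the table on the opposite strand, and the counting is not stated to use strand.

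Plcg2, the phospholipase that SYK and BTK activate, had 465, 391 and 458 CPM with vehicle and 378, 338 and 325 CPM with PF in WT. It fell by 0.34 ± 0.09 on the log2 scale (edgeR adjusted p = 0.0238), without overlap. Without β1 it had 365, 303 and 323 CPM with vehicle and 299, 285 and 291 CPM with PF, again without overlap, and a log2 fold change of -0.18 ± 0.09 (edgeR adjusted p = 0.982). Csk, Inpp5d, Inppl1 and Plcg2 are listed, as is Fgr, in the study's table of downregulated gene ontology terms, which was made from these libraries, so their falls are not independent evidence of a direction.

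Syk, Src, Btk and Lyn did not pass the test in WT. Syk had 859, 767 and 853 CPM with vehicle and 778, 701 and 702 CPM with PF, which overlapped, with a log2 fold change of -0.19 and an interval (95%) of -0.35 to -0.02 (edgeR adjusted p = 0.0995). Src had 8.66, 7.94 and 12.4 CPM with vehicle and 6.86, 6.93 and 7.39 CPM with PF, with a log2 fold change of -0.45, an interval of -0.83 to -0.07 and an edgeR adjusted p of 0.0894. The Src groups did not overlap, but vehicle library 3 lay far above the other 2.

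Lyn, which acts both in activating and in inhibitory receptor signalling, had 185, 215 and 195 CPM with vehicle and 210, 191 and 193 CPM with PF in WT. The groups overlapped, and the log2 fold change was -0.0041 with an interval of -0.20 to 0.19 (edgeR adjusted p = 0.979). Btk had 113, 106 and 103 CPM with vehicle and 104, 97.8 and 108 CPM with PF, with a log2 fold change of -0.05 and an interval of -0.20 to 0.10 (edgeR adjusted p = 0.62). Both values moved when the trend of the libraries in GC content, described further on, was removed.

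**Figure D2:**
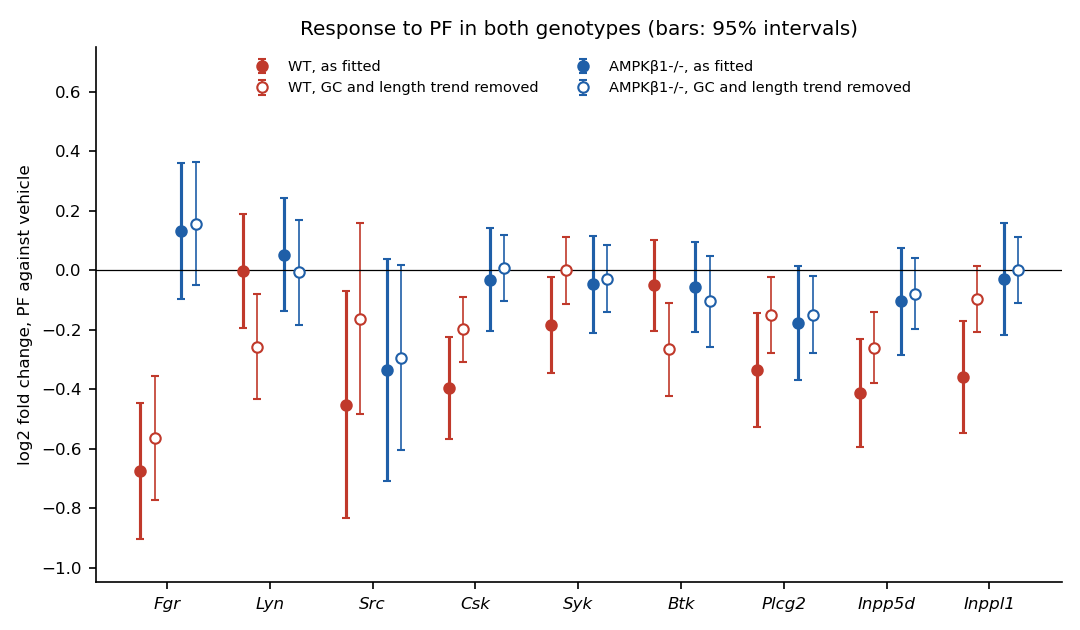
Log2 fold change of PF against vehicle (y axis) for each gene (x axis) in WT (red) and AMPKβ1-/- BMDMs (blue), with 95% intervals, from the fit as reported (filled) and after the trend of each library in GC content and transcript length was removed (open). Removing the trend brings Csk from -0.40 to -0.20 and Inppl1 from -0.36 to -0.10 in WT, and moves Btk from -0.05 to -0.27.

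In AMPKβ1-/- BMDMs 0 of the 8 members were called with PF. The number at an unadjusted p below 0.05 was also 0, against 4.98% of all genes, and DESeq2 and limma-voom called 0 as well. Over all genes 0.0554% were called. The median log2 fold change of the 8 members was -0.05. In 3 of the 8 members, Src, Inpp5d and Plcg2, every library with PF lay below every library with vehicle, against 6.28% of all genes. Lyn had 184, 232 and 226 CPM with vehicle and 229, 221 and 216 CPM with PF, Btk 111, 117 and 113 CPM with vehicle and 112, 108 and 109 CPM with PF, and both overlapped. Src was lower in each library with PF, at 7.58, 8.09 and 7.81 CPM against 11.6, 8.28 and 9.97 CPM, and its log2 fold change of -0.34 ± 0.18 (edgeR adjusted p = 0.982) was close in size to that in WT. Syk had 750, 661 and 682 CPM with vehicle and 670, 687 and 667 CPM with PF, and Inppl1 had 475, 393 and 396 CPM with vehicle and 426, 408 and 404 CPM with PF. The groups of both genes overlapped.

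The difference between the responses was tested directly, as the log2 fold change in WT minus that in AMPKβ1-/- BMDMs. It passed in 0 of the 8 members by edgeR, DESeq2 and limma-voom, and in 0.416% of all genes by edgeR. At an unadjusted p below 0.05 there were 3 of 8 members, and 14.3% of all genes. These were Csk with a difference of -0.37 ± 0.11 (edgeR adjusted p = 0.173), Inppl1 with -0.33 ± 0.13 (edgeR adjusted p = 0.254) and Inpp5d with -0.31 ± 0.12 (edgeR adjusted p = 0.273). A dependence on β1 of their falls was therefore not shown at this depth and number of libraries. Plcg2 differed by -0.16 with an interval of -0.43 to 0.11, Lyn by -0.06 with -0.33 to 0.21, and Btk by 0.0045 with -0.21 to 0.22.

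The genotypes were then compared with vehicle alone. Csk, Inppl1, Plcg2, Inpp5d and Syk were lower in AMPKβ1-/- than in WT BMDMs, and 0 members were higher. This comparison shares its WT vehicle libraries with the response above, so a high or low WT vehicle library moves both in the same sense. By edgeR 5 of the 8 members other than Fgr were called, or 6 of 9 with Fgr, where 59.7% of all genes were called and 30.0% as lower. Calls were thus common among all genes here. As fitted, Csk showed the largest difference among the members, with a log2 fold change of -0.57 ± 0.08 (edgeR adjusted p = 8.49e-05), and no AMPKβ1-/- library reached a WT library. Plcg2 differed by -0.41 ± 0.09 (edgeR adjusted p = 0.00131), Inppl1 by -0.40 ± 0.09 (edgeR adjusted p = 0.00129), Inpp5d by -0.25 ± 0.09 (edgeR adjusted p = 0.0192) and Syk by -0.25 ± 0.08 (edgeR adjusted p = 0.0121). Inpp5d overlapped between the genotypes and the other 4 did not, where 32.0% of all genes were lower in AMPKβ1-/- BMDMs without overlap. Lyn differed by 0.11 ± 0.09, Btk by 0.08 ± 0.07 and Src by 0.03 ± 0.17, and none of these was called. Fgr differed by -0.48 ± 0.11, on the libraries that chose it. Osteoclast markers moved with genotype too, with summed levels of 14.5 to 16.4 CPM in AMPKβ1-/- and 21.3 to 29.1 CPM in WT BMDMs with vehicle, and their part was not tested.

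With PF in both genotypes, 2 of the 8 members other than Fgr were called by edgeR, or 3 of 9 with Fgr, against 47.1% of all genes. Plcg2 was lower in AMPKβ1-/- BMDMs by a log2 fold change of -0.25 ± 0.09 (edgeR adjusted p = 0.0318) and Csk by -0.21 ± 0.08 (edgeR adjusted p = 0.0473). Of the 9 members, Fgr included, 0 were called without AMPKβ1-/- library 1 with PF. Without WT library 1 or 2 or AMPKβ1-/- library 2 or 3 with PF, 1 was called. Fgr was higher by 0.33 ± 0.11, on the libraries that chose it. Inpp5d, which was lower in AMPKβ1-/- BMDMs with vehicle, differed by 0.06 ± 0.09 with PF, with an interval of -0.13 to 0.24.

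The scale matters for comparisons between the genotypes. Libraries were scaled by TMM, which takes the bulk of genes as unchanged. With library size alone, the median of all genes moved by 0.21 on the log2 scale with vehicle and by 0.15 with PF, and the share of called genes that were higher went from 49.7% to 72.9% with vehicle and from 51.3% to 71.7% with PF. In WT with PF against vehicle that share went from 43.8% to 64.0%, and the members called there stayed 4 lower and 0 higher. With vehicle 4 members were then lower and 2, Lyn and Btk, higher in AMPKβ1-/- BMDMs, and Syk and Inpp5d were no longer called. With PF 4 were higher, 0 were lower, and Plcg2 and Csk were no longer called. These counts between the genotypes are over all members and include Fgr, on the libraries that chose it.

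Across all genes the changes moved with the GC content of the transcripts. Lyn and Btk, which did not pass in any comparison as fitted, have the lowest GC content of the 9, at 45.8% and 46.6%, against a median of 50.6% over the tested genes. Fgr has 52.9%, Inpp5d 53.6%, Syk 54.3%, Plcg2 54.5%, Csk 55.4%, Inppl1 57.1% and Src 59.3%. Src, with the highest, did not pass in any comparison as fitted either. It differed by 0.03 ± 0.17 (SE) between the genotypes with vehicle. The part of GC content in the change of any single member was not tested. Over the 10665 tested genes with a GC content, Spearman's rho of GC content with the log2 fold change was -0.71 for PF in WT, -0.44 for PF in AMPKβ1-/- and -0.76 for AMPKβ1-/- against WT with vehicle. It was -0.55 for AMPKβ1-/- against WT with PF and -0.50 for the difference between the responses (WT minus AMPKβ1-/-). These are correlations across genes, which are not independent replicates.

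**Figure D3:**
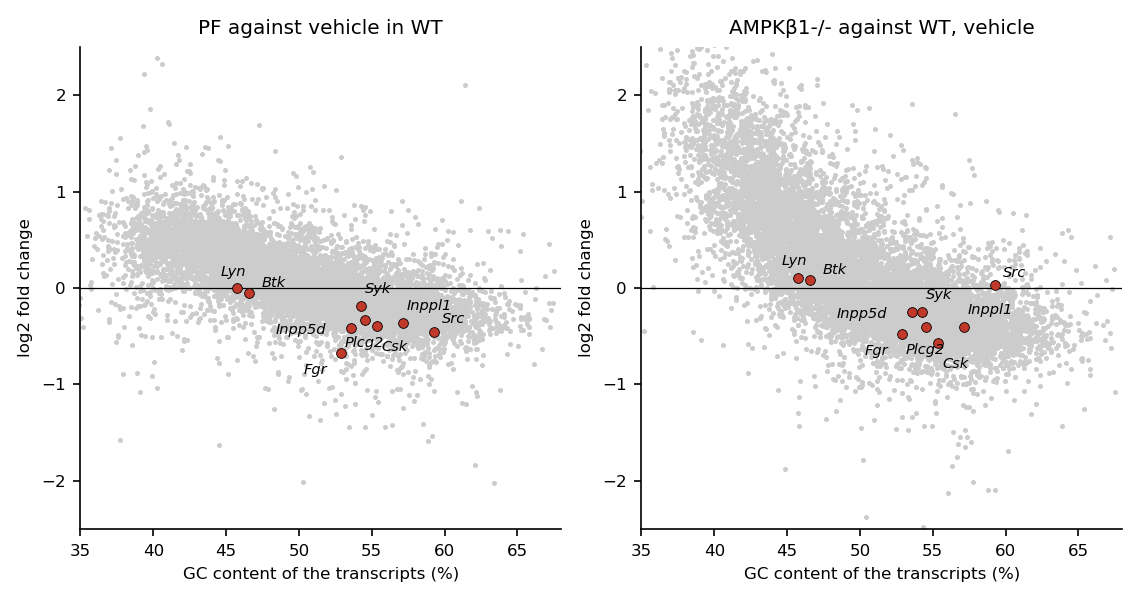
Log2 fold change (y axis) against GC content of the transcripts (x axis, %) for 10665 tested genes (grey) and the 9 members (red), for PF against vehicle in WT (left) and for AMPKβ1-/- against WT with vehicle (right). Of all genes, 14 on the left and 39 on the right lie outside the axes, and Lyn and Btk lie at the low-GC end with changes near 0.

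The libraries themselves differed in this trend. The slope of log2 level, relative to the mean of all libraries, on GC content was 0.36 to 0.73 per 10 percentage points in WT with vehicle, -0.05 to 0.37 in WT with PF, -0.36 to -0.10 in AMPKβ1-/- with vehicle and -0.52 to -0.34 in AMPKβ1-/- with PF. The slopes moved with genotype and, within WT, with treatment. Whether they come from library preparation or from the cells cannot be told apart in this design.

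After the trend in GC content and length was removed from each library, 3 of the 8 members were called with PF in WT, where 7.15% of the 10665 genes were. Csk fell by 0.20 ± 0.05 (edgeR adjusted p = 0.0248), Inpp5d by 0.26 ± 0.06 (edgeR adjusted p = 0.00751) and Btk by 0.27 ± 0.07 (edgeR adjusted p = 0.0334) on the log2 scale. Inppl1 at -0.10 (edgeR adjusted p = 0.302) and Plcg2 at -0.15 (edgeR adjusted p = 0.156) were no longer called. Lyn went from -0.0041 to -0.26, with an interval of -0.43 to -0.08 (edgeR adjusted p = 0.0791). Fgr remained lower, at -0.56 ± 0.10 in WT and 0.16 ± 0.10 in AMPKβ1-/- BMDMs. For AMPKβ1-/- against WT with vehicle 7 of the 9 members were called, where 34.5% of all genes were. Fgr, on the libraries that chose it, is among the 7. Lyn at -0.39 ± 0.08 (edgeR adjusted p = 0.00175) and Btk at -0.23 ± 0.07 (edgeR adjusted p = 0.0199) changed sign and were called, with Lyn now the largest difference among the members. Csk went from -0.57 to -0.23, and Inpp5d at -0.12 (edgeR adjusted p = 0.104) was no longer called. With PF in both genotypes 3 of the 9 were called, again with Fgr among them, where 39.3% of all genes were. Csk at -0.03 (edgeR adjusted p = 0.728) was no longer called there, Syk at -0.19 (edgeR adjusted p = 0.00862) became called, and Plcg2 kept its call at -0.25 (edgeR adjusted p = 0.00326). In the difference between the responses 0 of the 8 members were called, where 1.62% of all genes were.

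The pathway around the members was read from 110 further genes in 8 lists, of which 96 were tested. With PF in WT 32 of the 96 were called by edgeR, 10 higher and 22 lower, which is 33.3% against the 15.9% of all genes given above. Their median log2 fold change was -0.11. The counts by list below stand beside the same shares of all genes, 15.9% called and 8.95% called lower. In AMPKβ1-/- BMDMs 0 were called by edgeR and 4 had an unadjusted p below 0.05. After the GC and length trend was removed 20 were called in WT, 4 higher and 16 lower, where 7.15% of all genes were called. Fitted on the WT libraries alone 11 were called, and 13 to 45 when single libraries were left out. The count was 13 or 14 when PF library 3 or 2 of WT was left out, and 14 or 17 for vehicle library 1 or 3 of WT. The genes named below that are outside the 12 with the smallest p were chosen after their values were seen.

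Of 16 receptors and adaptors with ITAM motifs, Fc receptors and integrins, 2 were lower and 3 higher with PF in WT. The integrins Itgal and Itgam, the α chains of LFA-1 and Mac-1, fell by 0.70 ± 0.10 (edgeR adjusted p = 0.00112) and 0.39 ± 0.08 (edgeR adjusted p = 0.00947) on the log2 scale. Itgal went from 221 ± 27.6 to 136 ± 6.34 CPM. Clec4d and Clec4e, C-type lectins that signal through the FcRγ chain, rose by a log2 fold change of 0.44 ± 0.08 (edgeR adjusted p = 0.00279) and 0.63 (edgeR adjusted p = 0.0149), and so did Itgb1 by 0.45 (edgeR adjusted p = 0.0249). After the GC and length trend was removed no gene of this list was called higher. Clec4d turned to -0.06 (edgeR adjusted p = 0.884), Clec4e had 0.18 (edgeR adjusted p = 0.275) and Itgb1 0.12 (edgeR adjusted p = 0.236), while both falls kept their call.

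Of 11 inhibitory receptors with ITIM motifs, 2 were lower and 1 was higher. Siglece, a receptor for sialic acid, went from 12.5 ± 1.23 to 5.34 ± 0.690 CPM, or by -1.22 ± 0.16 in log2 (edgeR adjusted p = 0.000588). Pilra went from 7.70 ± 2.09 to 3.59 ± 0.687 CPM (log2 fold change -1.09 ± 0.21, edgeR adjusted p = 0.00543), and Lilrb4a rose by 0.71 (edgeR adjusted p = 0.0116). The level of Siglece in AMPKβ1-/- BMDMs was 12.1 ± 0.556 CPM without and 12.3 ± 1.89 CPM with PF. After the trend was removed Lilrb4a had 0.29 (edgeR adjusted p = 0.331), and 4 genes of the list were lower and 0 higher, with Pirb at -0.26 (edgeR adjusted p = 0.0283) and Clec4a2 at -0.50 (edgeR adjusted p = 0.00736) beside Siglece and Pilra.

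Of 16 phosphatases, ubiquitin ligases and docking proteins that restrain the pathway, 3 fell and 2 rose. The docking proteins Dok2 and Dok3 fell by 0.73 ± 0.09 (edgeR adjusted p = 0.000588) and 0.57 ± 0.09 (edgeR adjusted p = 0.00187) on the log2 scale. Ptpn6, the SHP-1 phosphatase of ITIM receptors, fell by 0.30 (edgeR adjusted p = 0.0181), while Ptpn12 rose by 0.47 (edgeR adjusted p = 0.0383) and Cblb by 0.25 (edgeR adjusted p = 0.0442). After the trend was removed Ptpn6 at -0.12 (edgeR adjusted p = 0.222) and Ptpn12 at 0.14 (edgeR adjusted p = 0.423) were no longer called, Dok2, Dok3 and Cblb were, and Ptpn22 at -0.43 (edgeR adjusted p = 0.00382) and Sla at -0.55 (edgeR adjusted p = 0.0104) became so.

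The list of 14 adaptors below SYK also holds Nfam1, which encodes a receptor with an ITAM motif and not such an adaptor. Of this list, Nfam1 fell by 0.38 ± 0.08 (edgeR adjusted p = 0.0081) and Lcp2, or SLP-76, by 0.27 (edgeR adjusted p = 0.0476) on the log2 scale. Lat2 rose by 0.32 (edgeR adjusted p = 0.0294) and Skap2 by 0.25 (edgeR adjusted p = 0.0404). After the trend was removed Skap2 turned to -0.07 (edgeR adjusted p = 0.604), and the other 3 kept their call, with Dapp1 at -0.51 (edgeR adjusted p = 0.0194) and Grb2 at 0.19 (edgeR adjusted p = 0.0359) newly called. The 23 effectors had a median of -0.24 on the log2 scale, and 9 were called lower and 1 higher, or 43.5%, against 15.9% of all genes. The calcium-responsive factor Nfatc2 fell by 0.51 ± 0.10 (edgeR adjusted p = 0.00561), the focal adhesion scaffold Pxn by 0.43 ± 0.08 (edgeR adjusted p = 0.00406) and the GTPase Rac2 by 0.37 ± 0.07 (edgeR adjusted p = 0.00676). The other falls were those of Vav1, Card9, Itpr3, Stim1, Orai1 and Nfatc1, between 0.26 and 0.39 on the log2 scale. Malt1, a partner of CARD9, rose by 0.76 (edgeR adjusted p = 0.0223). After the trend was removed 2 effectors, Rac2 and Bcl10, were lower and 1, Malt1, was higher, and the other 8 falls were no longer called.

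Of 12 PI3-kinase and AKT genes, Pik3r6, a regulatory subunit of PI3-kinase γ, fell by 0.70 ± 0.13 (edgeR adjusted p = 0.00383), Pik3r2 by 0.37 (edgeR adjusted p = 0.0275) and Pik3cd by 0.33 (edgeR adjusted p = 0.0392) on the log2 scale, while Pik3cb rose by 0.37 (edgeR adjusted p = 0.0258). After the trend was removed only Pik3r6 of this list was called, while Pik3r2 had -0.08 (edgeR adjusted p = 0.54), Pik3cd -0.07 (edgeR adjusted p = 0.612) and Pik3cb 0.13 (edgeR adjusted p = 0.448). Tec, the only other TEC-family kinase tested, had a log2 fold change of 0.26 (edgeR adjusted p = 0.0656).

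**Figure D4:**
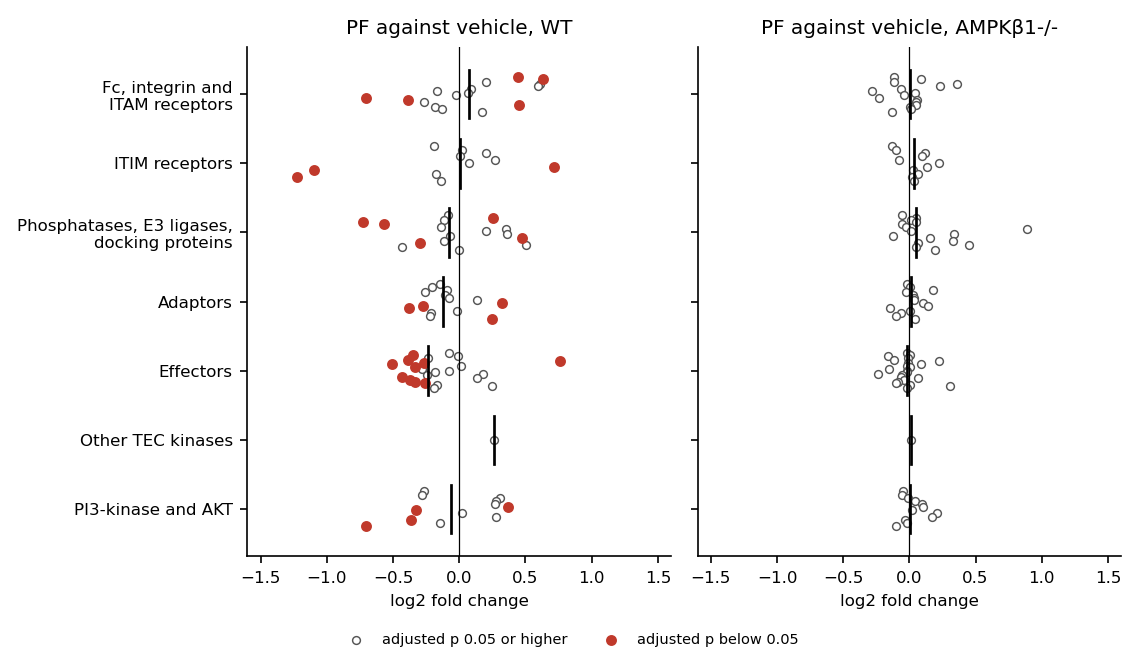
Log2 fold change of PF against vehicle (x axis) of 93 tested pathway genes outside the members, in 7 of the 8 lists (y axis), in WT (left) and AMPKβ1-/- BMDMs (right), with filled red points for genes called by edgeR and a line at each list's median. In WT the effectors have 9 filled points on the left and 1 on the right, and in AMPKβ1-/- BMDMs there is no filled point.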

How the data were processed

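RNA was sequenced from 12 libraries of WT and AMPKβ1-/- BMDMs, 3 in each of 4 groups given by the labels. Quality control by the authors used MultiQC and Trim Galore, and transcripts were quantified with Salmon. What they deposited are whole numbers per gene, read here as rounded estimated counts with no normalization. Genome build, versions and Salmon's options are not given in the sources used here.

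Counts were fitted in R 4.3.3 with edgeR 4.0.16 (robust quasi-likelihood test, TMM, filterByExpr by group, 1 fit of 4 group means to all 12 libraries). Library numbers 1 to 3 follow the count columns, which were matched to groups and not to single samples. A gene was called where its p, adjusted by Benjamini-Hochberg over 10822 tested genes, was below 0.05. SE were derived from fold changes and F statistics and are approximate, and intervals are 95%. CPM use TMM, and log2 CPM a prior count of 2. Between replicate libraries, none of them identical, the variance was 2.20 to 18.5 times that of counting. A gene at 0 allows up to 3 counts, for counting error only.

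Length and GC content came from protein-coding basic transcripts of GENCODE M21 (GRCm38), known for 10665 tested genes (98.5%), promoters from RefSeq (GRCm38.p6), with none listed for Lyn. The GC and length trend was fitted per library with natural splines (5 degrees of freedom). Alternatives were other scaling, filters and tests (DESeq2 1.42.0, limma 3.58.1), that trend, a block for the column numbers, and leaving out each library. The fit was tested on simulated counts with changes of 1.5-fold and 2-fold for PF in WT, of which 65% and 91% were called. These counts held no GC trend and no smaller changes, so they do not test changes as small as those of the called members. Named are the members, Prkab1, the 12 further pathway genes with the smallest p in WT and those called in AMPKβ1-/- or in the difference, and the 5 genes most like Fgr. Every further gene named was chosen after its values were seen. The members and lists were chosen with earlier results of these data known. The list of further Src-family kinases enters the totals and is otherwise not reported here.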

Additional observations from a re-analysis of the deposited data

Results flagged for a closer look

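The response to PF differed between the genotypes, by the edgeR test of the difference itself (WT minus AMPKβ1-/-), in 3 of the 96 tested pathway genes outside the 9 members, against 0.416% of all genes. Siglece differed by -1.24 ± 0.21 on the log2 scale (edgeR adjusted p = 0.0199), with -1.22 in WT and 0.02 in AMPKβ1-/- BMDMs. Dok2 differed by -0.77 ± 0.13 (edgeR adjusted p = 0.0199), with -0.73 in WT and 0.05 in AMPKβ1-/- BMDMs. Clec4d differed by 0.56 ± 0.11 (edgeR adjusted p = 0.0358), with 0.44 in WT and -0.12 in AMPKβ1-/- BMDMs. After the GC and length trend was removed Siglece differed by -1.16 (edgeR adjusted p = 0.0059) and Dok2 by -0.59 (edgeR adjusted p = 0.00777), whereas Clec4d, whose GC content is 40.4%, differed by 0.39 (edgeR adjusted p = 0.5). In all, 6 of the pathway genes were then called, against 1.62% of all genes, and the other 4 were Ptpn22 at -0.68 (edgeR adjusted p = 0.00604), Itgam at -0.44 (edgeR adjusted p = 0.00726), Pilra at -1.12 (edgeR adjusted p = 0.0339) and Lcp2 at -0.44 (edgeR adjusted p = 0.0419). Groups of 3 libraries are too small for a search for outlying libraries.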

How the results depend on the processing

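Over 936 member values under the alternatives, 843 kept direction and side of the threshold, 41 lost their call, 10 gained one, 41 changed sign and 1 moved by more than the spread between libraries, Fgr with PF in WT at -0.56 with the GC and length trend removed. The labels give groups no shared numbers, but the count columns are numbered 1 to 3 in each group. A replicate block on these numbers, chosen after seeing the data, changed no member's call and gave 1983 called genes for PF in WT against 1725, 0 against 6 for PF in AMPKβ1-/-, and 36 called pathway genes in WT. Deviations of same-numbered libraries from their group means correlated at -0.18 to 0.32 over 18 pairs, and 1 of the 12 libraries correlated best with its own number in every other group, so the numbers were not taken to pair libraries. Members called for PF in WT numbered 1 when only the contrast's libraries were fitted and 2 to 5 when single libraries were left out (2 when vehicle library 1 or 3 of WT, or its PF library 2 or 3, was left out). For AMPKβ1-/- against WT with PF they numbered, with Fgr counted, 0 to 3 when single libraries were left out and 4 with library size alone. With the fold threshold of 0.8 added, 0 were called for PF in WT, for the genotypes with vehicle and for the genotypes with PF. Called pathway genes in WT numbered 11 in the fit of the contrast's libraries, 20 with the GC and length trend removed and 13 to 45 with single libraries left out.

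Sign changes were mostly of values near 0, and their causes were not tested. For Lyn with PF in WT (log2 fold change -0.0041) they were 0.011 with DESeq2's size factors, with its Wald test (0.0107) and with the contrast's libraries alone (0.0106), 0.0074 with no filter, 0.0055 with 10 counts in every library and 0.073 with library size alone. Library size alone also gave 0.0302 for Btk with PF in WT, 0.0031 for Lyn in the difference of responses, and 0.042 for Syk and 0.077 for Inppl1 between genotypes with PF. Removing the GC and length trend gave -0.0078 for Lyn, 0.0068 for Csk and 0.0011 for Inppl1 with PF in AMPKβ1-/-, and 0.13 for Src, 0.028 for Syk and -0.16 for Btk in the difference of responses. It gave -0.39 for Lyn and -0.23 for Btk between genotypes with vehicle, and -0.14 and -0.071 with PF. Leaving out single libraries gave -0.052 to 0.059 for Lyn in WT, and in AMPKβ1-/- -0.044 to 0.11 for Lyn, -0.086 to 0.0074 for Syk, -0.073 to 0.038 for Csk and -0.076 to 0.066 for Inppl1. In the difference of responses it gave -0.116 to 0.0400 for Lyn, -0.25 to 0.10 for Src and -0.029 to 0.044 for Btk, and for Src between genotypes with vehicle -0.098 to 0.25.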
